A study of Mus musculus with 8 samples.

Results

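The 10 genes described here encode the leptin receptor, the insulin receptor and proteins that carry, pass on or shut off their signals: Lepr, Insr, Jak2, Sh2b1, Irs1, Irs2, Stat3, Foxo1, Socs3 and Ptpn1. They were chosen by gene symbol, all 10 were found among the 55401 genes of the deposited table, and all 10 were among the 16894 genes with enough expression to be tested (FPKM, a read count scaled to gene length and depth, averaging 0.5 or more). RNA sequencing of 8 mouse hypothalami, collected on postnatal day 19, gave their levels. Pups in the treated group received PLX3397, an inhibitor of the microglial receptor CSF1R that removes microglia, by gavage from postnatal day 9 to day 15, and control pups received vehicle over the same days. Both groups held 4 pups, 2 females and 2 males. The labels give no strain, genotype or allele, and their source field reads brain, while the design text speaks of hypothalami.

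Leptin, released by fat, binds the leptin receptor on neurons of the arcuate nucleus and neighbouring regions. The receptor has no enzyme activity of its own: the attached kinase JAK2 phosphorylates it, and the transcription factor STAT3 then docks, moves to the nucleus and changes transcription of feeding peptide genes. Insulin acts on its own tyrosine kinase receptor through the IRS adaptors and phosphatidylinositol 3-kinase, which leads to export of the transcription factor FOXO1 from the nucleus. SOCS3 and the phosphatase PTP1B, the product of Ptpn1, damp both pathways. In rodents the arcuate circuits that respond to leptin mature during the weeks after birth, which include the days of treatment here.

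Total counts ran from 54115300 to 67487391 per library. Csf1r, which encodes the receptor that PLX3397 blocks, was at 76.4 to 85.7 CPM (counts scaled to library depth) under vehicle and at 1.23 to 6.44 CPM under PLX3397 (log2 fold change −4.18, edgeR adjusted p = 0.00526). The hypothalamic peptide genes Pmch, Avp and Hcrt were present in all 8 libraries, at no less than 224, 93.6 and 18.7 CPM. The library vehicle F1 (female 1) also held anterior pituitary transcripts: 8 pituitary markers summed to 3124 CPM there, and to between 5.19 and 16.6 CPM elsewhere. Among the PLX3397 libraries, male 2 (M2) had the lowest sum of 12 microglial markers, 40.2 CPM, where its 3 companions had 59.5 to 66.4 CPM and vehicle 308.6 to 331.2 CPM. Because whole hypothalami were sequenced, fewer cells that express a gene and less of its RNA per cell cannot be told apart. CPM were scaled by the trimmed mean of M-values (TMM), and a fold change is the PLX3397 level over the vehicle level. Where 4 values are given for a group, they stand in the order female 1, female 2, male 1, male 2 (F1, F2, M1, M2).

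Stretches before a RefSeq start site of Lepr and of Socs3 are shown as a description of sequence. The counts measure the level of RNA and not its transcription. Lepr was the member whose groups lay apart, and Socs3 is a textbook target of STAT3. RefSeq windows of up to 250 bases before the start were at hand for 9 of the 10 members (11 windows on GRCm38.p6, the patch release of mm10). Bases that GENCODE M21 annotates as exon were left off the printed stretches only. The Ptpn1 window and a second Lepr window (chr4:101717656-101717905) lie wholly in annotated exon. The search covered all 11 windows whole, exon bases included. Each was searched on both strands for TTCNNNGAA, the spaced palindrome that STAT factors bind, and for GTAAACA, a FOXO core motif. The Lepr stretch (chr4:101717157-101717403, plus strand) has no match to either. The Socs3 stretch (chr11:117969452-117969616, minus strand) has 1 STAT-type match, in capitals, whose first base lies 154 bases before the RefSeq start. That stretch lies inside the Socs3 span of the deposited table (chr11:117966079-117970047). It therefore precedes this RefSeq start, and not the outermost start annotated for the gene. Both printed stretches are written 5′ to 3′ on the gene's strand.
Lepr: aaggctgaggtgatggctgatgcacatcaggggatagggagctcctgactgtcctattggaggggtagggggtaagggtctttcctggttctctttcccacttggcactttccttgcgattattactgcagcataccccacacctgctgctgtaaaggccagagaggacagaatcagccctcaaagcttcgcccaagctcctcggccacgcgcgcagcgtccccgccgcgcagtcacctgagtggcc
Socs3: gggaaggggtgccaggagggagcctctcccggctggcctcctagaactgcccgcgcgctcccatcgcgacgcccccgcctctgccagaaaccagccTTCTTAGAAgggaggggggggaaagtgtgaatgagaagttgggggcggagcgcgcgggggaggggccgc

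Of the 11 member windows, 1 held the STAT-type letters, against 7.02% of all 32851 promoter windows of that length, and 0 held the FOXO letters, against 3.17%. A match is a description of the sequence, and no match says only that these letters are not in the window.

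Levels of the 10 genes spanned a wide range on the FPKM scale, which divides by a length for each gene. How that length was set where several transcripts are listed (14 for Stat3 and 5 for Insr, against 1 for Irs2) is not stated. The order between genes is therefore approximate. A pair of adaptor genes were highest: Sh2b1, whose product binds JAK2 and raises its activity, had a mean level of 18.6 ± 1.48 FPKM (SD over all 8 libraries), and Irs2, a docking protein of the insulin receptor, 16.2 ± 1.65 FPKM. Sh2b1 was above Irs2 in 7 of 8 libraries, and their ranges overlapped. A middle group followed: Jak2 at 7.02 ± 0.445, Stat3 at 6.98 ± 0.379 and Ptpn1 at 6.10 ± 1.62 FPKM, whose neighbours in the order overlapped. Every library had more Irs2 than Jak2, with no overlap of the ranges.

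Irs1, the other insulin receptor substrate in the set, and Foxo1 had means of 3.49 ± 0.209 and 3.49 ± 0.376 FPKM, with Irs1 above Foxo1 in 4 of 8 libraries. The receptors came near the end of the order. Insr had a level of 2.61 ± 0.543 FPKM and Lepr 1.06 ± 0.176 FPKM, with no overlap between the pair, and Socs3 was lowest at 0.891 ± 0.229 FPKM, below Lepr in 6 of 8 libraries. The deposited table lists 7 transcripts under Lepr and gives a single value for the gene, so the long signalling form and the short forms of the receptor were not separated.

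**Figure D1:**
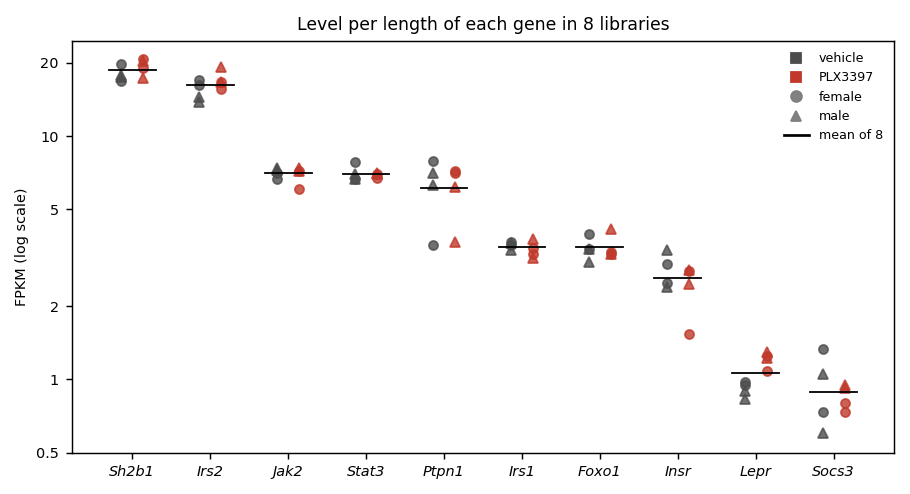
FPKM of each gene (log axis) in the 8 libraries, ordered by mean level; points are single libraries, coloured by treatment and shaped by sex, and black bars are means over 8 libraries. Sh2b1 and Irs2 lie above the other genes at 13.8 to 20.6 FPKM, and Lepr and Socs3 lie lowest at 0.601 to 1.33 FPKM.

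Lepr (chr4:101717404-101813667, plus strand of mm10) was the only member whose groups did not overlap. Its level was 7.79, 7.68, 6.75 and 7.27 CPM under vehicle, and 10.2, 8.83, 9.82 and 10.5 CPM under PLX3397. All 4 PLX3397 values lay above the highest vehicle value, and under vehicle both females were above both males. The counts behind them were 364 to 456 and 566 to 680 per library. The means were 7.37 ± 0.470 and 9.85 ± 0.735 CPM (SD, n = 4 each). The fold change was 1.34 with a 95% interval of 1.14 to 1.56 (log2 fold change 0.42 ± 0.10, SE; edgeR adjusted p = 0.0873 over all tested genes). The difference did not pass the threshold of 0.05 with edgeR. With DESeq2 it did (log2 fold change 0.42, adjusted p = 0.00576), and under the other 22 alternatives it did not, with adjusted p from 0.0551 to 0.314.

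**Figure D2:**
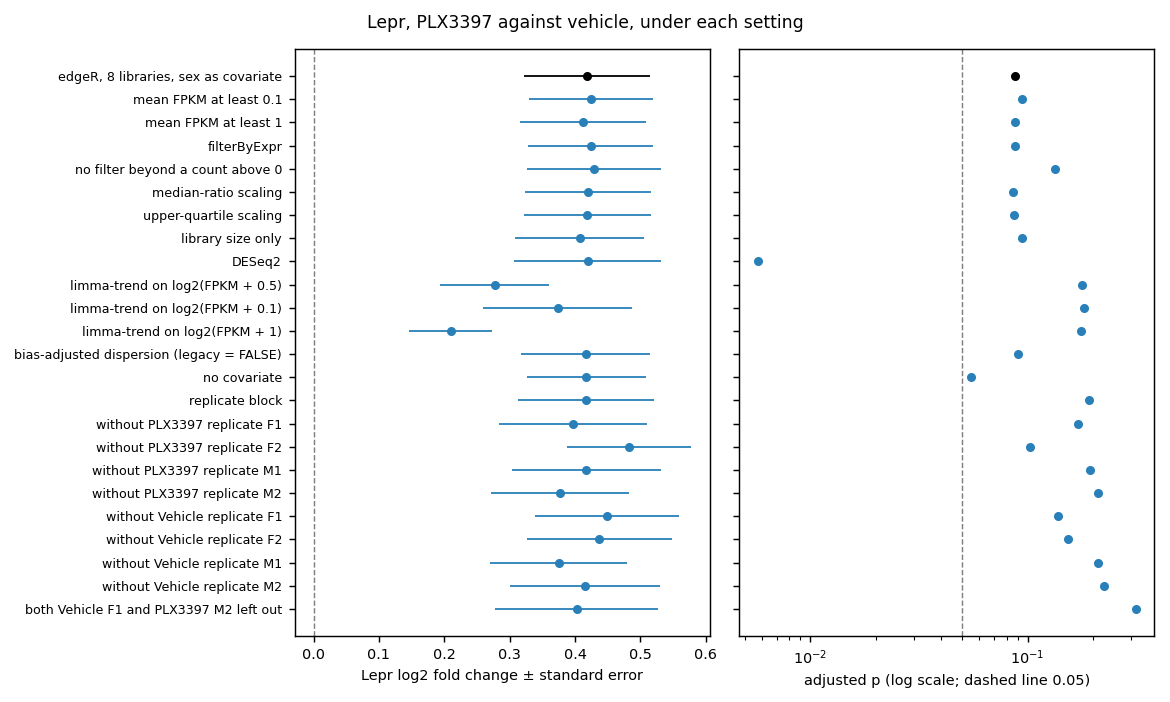
Lepr log2 fold change with its standard error (left) and adjusted p on a log axis (right) under the reported fit and each of 23 alternatives. The fold change stayed between 0.209 and 0.482, and the adjusted p was under 0.05 with DESeq2 alone.

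The count of calls was read against that over all tested genes. Of the 10 members, 0 passed with edgeR over all genes, where 2.14% of tested genes did (0.308% higher and 1.83% lower). At an unadjusted p under 0.05 the count was 1 member, Lepr, against 16.2% of tested genes. DESeq2 called 1 member, against 6.49% (2.02% higher and 4.47% lower). In 1 of 10 members the groups did not overlap, against 11.2% of tested genes. With 10 genes these counts lie near the background, so they are no result about the set.

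A gene named for the leptin receptor locus had lower values under PLX3397, without a call by edgeR. Leprot, which encodes a small endosomal protein, was at 29.6, 28.0, 30.0 and 30.9 CPM under vehicle and at 25.6, 26.0, 23.5 and 24.3 CPM under PLX3397. All 4 PLX3397 values lay below the lowest vehicle value (log2 fold change −0.25 ± 0.06, edgeR adjusted p = 0.0942). Leprot passed with DESeq2 (adjusted p = 0.0111) and narrowly with limma-trend at pseudocounts of 0.5 and 1 (adjusted p = 0.0492 and 0.049). It did not pass under the other 20 of 23 alternatives (adjusted p up to 0.354), which include leaving out each library in turn (0.102 to 0.239).

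The 5 tested genes whose log2 CPM followed that of Lepr most closely over the 8 libraries were the predicted gene Gm12345 (Pearson r = 0.984), the synaptic vesicle gene Sv2b (0.979), Cmbl (0.978), Minar1 (0.963) and Dym (0.962). All 5 had a positive log2 fold change, from 0.12 to 0.51, and edgeR adjusted p from 0.11 to 0.225. They were picked as the closest of 16894 genes, and the 8 libraries hold both treatment groups, so the correlations describe the choice.

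Cell types other than neurons also express Lepr, and the markers of several were measured beside it. The 10 markers of meningeal and perivascular fibroblasts summed to 265.3 to 378.7 CPM under vehicle and 371.2 to 528.9 CPM under PLX3397. With edgeR 3 of the 10 (Slc6a13, Aldh1a2 and Tbx18) rose and 0 fell, where 0.308% of all tested genes rose. Groups overlapped for Slc6a13 and Aldh1a2. By sign 8 were positive and 2 negative, Col1a1 and Col1a2 (log2 fold change −0.32 and −0.01). DESeq2 called 6 higher, where 2.02% of all tested genes were. In edgeR fits with a library left out 0 passed without PLX3397 F2, PLX3397 M2, vehicle M1 or vehicle M2, 1 without vehicle F2, and 2 without PLX3397 F1 or M1. The sums of 9 tanycyte and ependymal markers were 174.0 to 214.0 and 180.0 to 229.5 CPM, those of 9 endothelial markers 200.7 to 243.2 and 213.3 to 229.5 CPM, and those of 9 choroid plexus markers 47.6 to 64.7 and 52.1 to 66.3 CPM. In the choroid plexus list the defining gene Ttr averaged 2.69 and 2.51 CPM. Of the endothelial markers 1 rose with edgeR, Flt1, and 0 fell, where 0.308% of all tested genes rose (2 rose with DESeq2, against 2.02%). By sign 4 of the 9 were positive and 5 negative. At an unadjusted edgeR p under 0.05, 2 were higher and 1 lower, against 7.24% and 9% of all tested genes. With a library left out 1 passed without PLX3397 M2 and 0 in the other 7 fits. In the tanycyte and choroid plexus lists all 9 and only 5 of 9 genes were expressed enough to be tested. Of these, 0 rose or fell with edgeR and DESeq2. At an unadjusted edgeR p under 0.05 there were 0 and 1 genes, against 16.2% of all tested genes.

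Neuron markers were also measured. The 9 on the list summed to 4154 to 4436 CPM under vehicle and 4360 to 4506 CPM under PLX3397, and with edgeR 0 passed (2 rose with DESeq2, where 2.02% of all tested genes did). At an unadjusted p under 0.05, 4 were higher, each with groups apart: Slc17a6, the glutamate transporter of excitatory neurons (log2 fold change 0.20), Rbfox3 (0.17), Snap25 (0.15) and Stmn2 (0.08). The transporter of inhibitory neurons, Slc32a1, was lower at that level (−0.21). Over all tested genes 7.24% were higher and 9% lower at that level, and in 11.2% the groups did not overlap. Hypothalamic markers, 11 genes, summed to 617.1 to 877.1 and 581.8 to 903.6 CPM, with 0 past the threshold with edgeR. With DESeq2 3 were higher, against 2.02% of all tested genes. At an unadjusted edgeR p under 0.05, 4 were higher, against 7.24%. Agrp and Ghrh are among those 4, and they also belong to the arcuate list given below. The part of fibroblast or neuronal RNA in the Lepr difference was not tested.

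Insr, the insulin receptor tyrosine kinase (chr8:3122061-3279617, minus strand), was at 38.6, 47.1, 53.5 and 38.1 CPM under vehicle and at 24.4, 44.0, 38.5 and 44.4 CPM under PLX3397. The groups overlapped, and PLX3397 F1 lay well below the other 7 libraries. The means were 44.3 ± 7.40 and 37.8 ± 9.34 CPM (SD; fold change 0.85, 95% interval 0.619 to 1.17, edgeR adjusted p = 0.618). Without PLX3397 F1 the log2 fold change moved from −0.23 to −0.07.

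The ratio of Insr to Lepr on the FPKM scale ran from 2.55 to 4.08 under vehicle and from 1.23 to 2.57 under PLX3397, so the ranges just overlapped. An exact two-sided permutation test over samples gave p = 0.0571, where the smallest that 4 against 4 allows is 0.0286, and adjusted p = 0.143 over the 3 ratios computed. The others were Socs3 to Lepr, an inhibitor against its receptor (mean 1.01 ± 0.313 in vehicle and 0.704 ± 0.0765 in PLX3397 libraries, exact permutation p = 0.114), and Irs2 to Irs1 (4.30 ± 0.416 and 5.03 ± 0.768, exact permutation p = 0.143). None of the 3 ratios passed. With a smallest p of 0.0286, a ratio whose groups alone lay apart could not have passed after adjustment over 3. The failure to pass therefore says little. The ratios of Insr and of Socs3 to Lepr also share Lepr, whose groups lay apart.

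Jak2, the kinase bound to the leptin receptor (chr19:29251828-29313080, plus strand), was among the steadiest members. It was at 39.9, 38.5, 42.0 and 42.6 CPM under vehicle and at 41.9, 35.2, 41.0 and 42.7 CPM under PLX3397. The values were interleaved, with the lowest in PLX3397 F2. The fold change was 0.986 with a 95% interval of 0.89 to 1.09 (edgeR adjusted p = 0.912).

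Sh2b1 (chr7:126466994-126475103, minus strand) was at 87.5, 75.7, 78.6 and 80.5 CPM under vehicle and at 86.8, 93.5, 90.6 and 78.3 CPM under PLX3397. PLX3397 F2 and M1 lay above all vehicle libraries, while PLX3397 M2 lay below 3 of them. The fold change was 1.08 (95% interval 0.972 to 1.21; edgeR adjusted p = 0.459).

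The genes of the insulin receptor substrates had overlapping groups. Irs1 (chr1:82233101-82291416, minus strand) was at 36.7, 38.4, 38.3 and 35.9 CPM under vehicle and at 36.7, 34.5, 39.1 and 33.1 CPM under PLX3397. Its coefficient of variation was 3.22% under vehicle and 7.30% under PLX3397 (9.03% and 8.84% for Irs2), and the fold change was 0.96 (95% interval 0.862 to 1.07; edgeR adjusted p = 0.726). Irs2 (chr8:10984681-11008458, minus strand) was at 121.2, 117.2, 99.8 and 105.3 CPM under vehicle and at 113.8, 122.0, 119.5 and 139.2 CPM under PLX3397. In vehicle both males were below both females, and PLX3397 M2 was highest of all. The Irs2 fold change was 1.12 (95% interval 0.974 to 1.28; edgeR adjusted p = 0.413).

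Stat3, the transcription factor that the leptin receptor activates (chr11:100885098-100939540, minus strand), was at 84.2, 72.7, 72.8 and 76.4 CPM under vehicle and at 74.2, 76.4, 75.9 and 77.4 CPM under PLX3397. The PLX3397 values spread little (coefficient of variation 1.80%) and lay within the vehicle range. The fold change was 0.993 with a 95% interval of 0.907 to 1.09 (edgeR adjusted p = 0.955), for the transcript, not the activated protein. Stat3 shares 72 bases with the annotated end of Stat5a on the other strand, which had 438 counts at most in any library against 3924 to 4933 for Stat3.

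Foxo1, the transcription factor that insulin signalling removes from the nucleus (chr3:52268336-52353221, plus strand), was at 38.6, 34.0, 30.2 and 34.3 CPM under vehicle and at 33.4, 32.7, 32.2 and 41.5 CPM under PLX3397. PLX3397 M2 stood above the 3 other PLX3397 libraries and above all vehicle libraries. The fold change was 1.02 (95% interval 0.853 to 1.22; edgeR adjusted p = 0.933), and without PLX3397 M2 the log2 value went from 0.03 to −0.08.

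The inhibitor genes had wide spreads. Socs3, which binds the activated receptor and JAK2 and is itself induced by STAT3 (chr11:117966079-117970047, minus strand), was at 4.35, 2.44, 2.00 and 3.52 CPM under vehicle and at 2.48, 2.67, 3.04 and 3.18 CPM under PLX3397. The PLX3397 values lay inside the vehicle range. These levels rest on 108 to 255 counts per library. The coefficient of variation was 34.5% under vehicle, the largest of the 10 genes there, and 11.4% under PLX3397, and the fold change 0.923 (95% interval 0.602 to 1.41; edgeR adjusted p = 0.873). Without vehicle F1, the library with pituitary transcripts, the log2 value went from −0.12 to 0.14.

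Ptpn1, which encodes the phosphatase that acts on JAK2 and on the insulin receptor (chr2:167932057-167979385, plus strand), was at 49.2, 22.7, 44.5 and 40.1 CPM under vehicle and at 44.9, 45.7, 38.8 and 23.5 CPM under PLX3397. Vehicle F2 and PLX3397 M2 were both far below the other 6 libraries, which lay between 38.8 and 49.2 CPM. The low values rest on 1319 and 1298 counts, and the FPKM values showed the same gap (3.57 and 3.69 against 6.18 to 7.88 FPKM). Counts and FPKM come from the same deposited quantification, so they are no independent measurements, and whether the gap arose in the counting or in the animals cannot be told apart here. With 1 low library in each group the fold change was 0.964 with a wide 95% interval of 0.607 to 1.53 (edgeR adjusted p = 0.952). Without PLX3397 M2 the log2 value went from −0.05 to 0.16, and without vehicle F2 to −0.31 (edgeR adjusted p = 0.839 and 0.464). No other annotated gene overlaps Ptpn1 in the table.

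**Figure D3:**
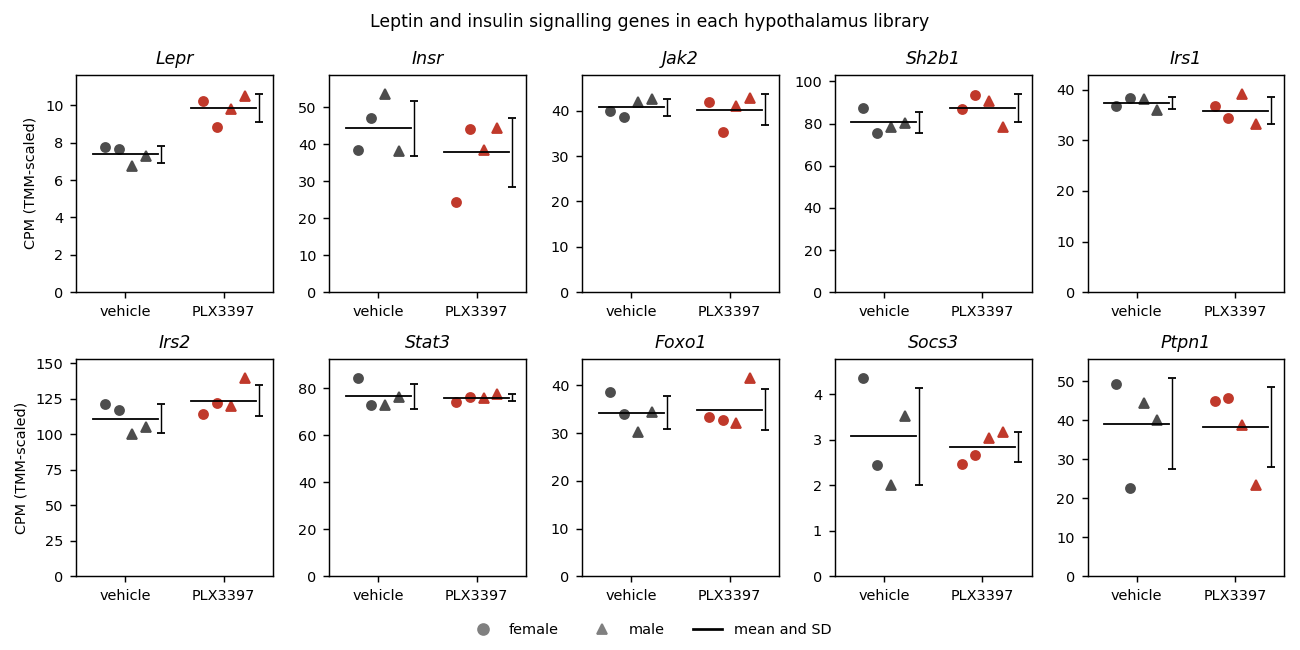
TMM-scaled CPM of each gene in each library (axes start at 0; circles female, triangles male; horizontal lines are group means and bars the SD of 4 libraries). The groups lie apart for Lepr and overlap for the other 9 genes, and 1 library of each group is low for Ptpn1.

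Across the set, 4 members had a positive and 6 a negative log2 fold change. The median was −0.02, against −0.00 over all tested genes. A p above the threshold does not show that a level was equal in both groups, and the intervals given bound each change. A single library often held the extreme. Vehicle F1 was the highest vehicle library for 7 of the 10 members (Lepr, Sh2b1, Irs2, Stat3, Foxo1, Socs3 and Ptpn1), where it was highest for 25.2% of all tested genes. PLX3397 M2 was the highest PLX3397 library for 7 (Lepr, Insr, Jak2, Irs2, Stat3, Foxo1 and Socs3), against 26.3% of tested genes, and the lowest for the other 3, against 26.8%. Those are the libraries with pituitary transcripts and with the least microglial RNA, and the part of either in the members' values was not tested. Without both libraries Lepr had a log2 fold change of 0.40 (edgeR adjusted p = 0.314), and 6 of the 10 members were positive.

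The effect of PLX3397 was also estimated within each sex, with 2 libraries per cell. Lepr had a log2 fold change of 0.30 ± 0.13 in females and 0.54 ± 0.13 in males (SE), and the difference between them was 0.23 (95% interval −0.21 to 0.68; edgeR adjusted p = 0.882). Irs2 had −0.02 ± 0.08 in females and 0.33 ± 0.08 in males, a difference of 0.35 (95% interval 0.07 to 0.63; edgeR adjusted p = 0.818). Ptpn1 had 0.33 ± 0.37 in females and −0.44 ± 0.37 in males, where the low library of vehicle is a female and that of PLX3397 a male (difference −0.78, edgeR adjusted p = 0.866). With edgeR 0 of 10 members differed between the sexes in their response after adjustment, where 0.077% of tested genes did, and 1, Irs2, had an unadjusted p under 0.05, against 6.01%. DESeq2 also called 0 members, with 1 at an unadjusted p under 0.05.

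No member passed for males against females. The male against female log2 values ran from −0.15 for Ptpn1 to 0.19 for Insr, and that of Lepr was −0.02 ± 0.10. With edgeR 0 of 10 members passed, against 0.0592% of tested genes, and 0 had an unadjusted p under 0.05, against 4.99%. DESeq2 gave 0 for both counts.

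**Figure D4:**
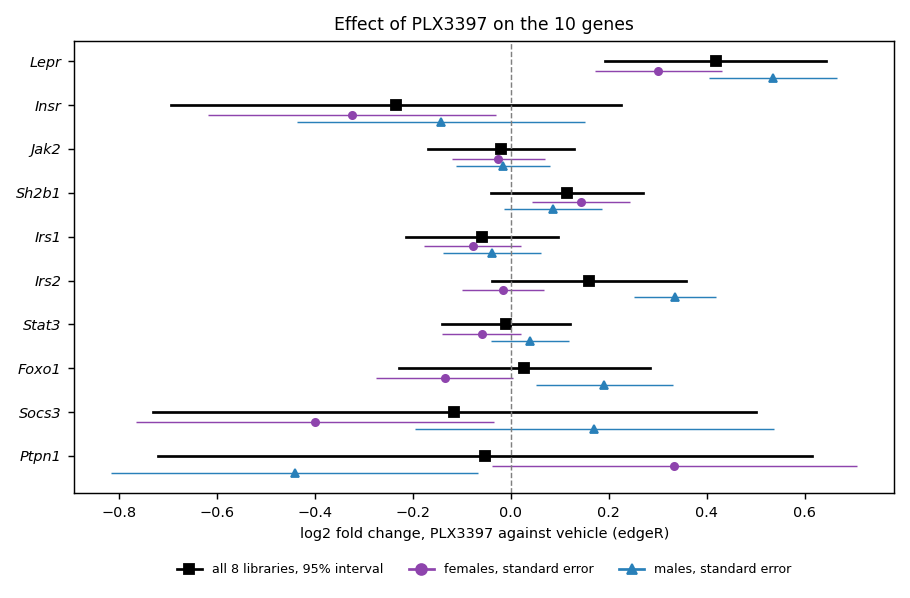
Log2 fold change of PLX3397 against vehicle for each gene over all 8 libraries (squares, 95% interval) and within females and males (circles and triangles, standard error). The interval of Lepr, from 0.19 to 0.64, lies to the right of 0, and those of the other 9 genes include 0.

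Beyond the 10 genes, the rest of the leptin pathway showed no call with edgeR. Of 20 other genes of the JAK-STAT branch 18 were tested, and with edgeR 0 rose and 0 fell, with a median log2 fold change of −0.04 (0.00 without PLX3397 M1 or vehicle M1). At an unadjusted p under 0.05, 4 of the 18 were lower and 0 higher, where 9% of all tested genes were lower and 7.24% higher: Leprot, the phosphatase gene Ptpn11 (249.3 and 230.1 CPM; −0.12, adjusted p = 0.089), the kinase gene Tyk2 (−0.24, adjusted p = 0.155) and Pias3, which encodes an inhibitor of STAT3 (−0.19, adjusted p = 0.162). Tyk2 and Pias3 are named, after their values were seen, because they belong to that count. The leptin gene itself, Lep, had no counts in any library, which allows up to 0.0451 to 0.0557 CPM by counting error alone. DESeq2 called 2 of the 18, both lower, where 4.47% of all tested genes were lower. Limma-trend called 1, Leprot, at pseudocounts of 0.5 and 1.

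The insulin branch held 3 calls. Of its 33 other genes 3 fell and 0 rose with edgeR, where 1.83% of all tested genes fell and 0.308% rose. The median of the list was −0.00. With DESeq2 5 fell and 0 rose, where 4.47% of all tested genes fell. With edgeR, and both vehicle F1 and PLX3397 M2 left out, 1 fell, Pik3r3. The count was 1 without PLX3397 F2 or M1. Inppl1, which encodes the lipid phosphatase SHIP2 that removes the signal made by phosphatidylinositol 3-kinase, was at 54.5 to 71.5 CPM under vehicle and 30.4 to 39.0 CPM under PLX3397 (log2 fold change −0.87 ± 0.11, edgeR adjusted p = 0.0118). Pik3r3, a regulatory subunit of that kinase, was at 90.0 to 102.5 CPM under vehicle and 61.1 to 73.5 CPM under PLX3397 (−0.51 ± 0.07, edgeR adjusted p = 0.0121). Grb14, an adaptor that inhibits the insulin receptor kinase, was at 22.9 to 28.2 and 16.9 to 19.4 CPM (−0.51 ± 0.08, edgeR adjusted p = 0.0246). For each of the 3 the groups lay apart.

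These calls held to different degrees when a library was left out. Inppl1 passed in 7 of 8 such fits, missing without PLX3397 M1 (edgeR adjusted p = 0.0516), and Pik3r3 in 7 of 8, missing without PLX3397 F2 (adjusted p = 0.052). Grb14 passed in 2 of 8, those without PLX3397 F1 or vehicle F1. Its adjusted p was 0.0904, 0.0908 and 0.0687 when the missing library was PLX3397 F2, M1 and M2, and 0.075, 0.0834 and 0.0842 when it was vehicle F2, M1 and M2. The core of the branch showed small differences: Akt1 had 0.03, Akt2 −0.00, Mtor 0.05 and Igf1r −0.06, with edgeR adjusted p from 0.594 to 0.986, named after their values were seen, as the best known parts of the pathway. Markers of other cells moved with treatment: 10 oligodendrocyte markers summed to 6338 to 9611 CPM under vehicle and 2143 to 4881 CPM under PLX3397, all 10 with a negative sign and 4 past the threshold with edgeR, and 9 of 12 microglial markers fell. Of all tested genes 1.83% fell with edgeR. The oligodendrocyte count was 0 without PLX3397 F2, PLX3397 M1 or vehicle M1, 1 without vehicle F1, F2 or M2, 2 without PLX3397 M2 and 8 without PLX3397 F1, and 9 or 10 had an unadjusted p under 0.05 each time. The microglial count was 5 without PLX3397 F2 or vehicle F2, M1 or M2, and 6 to 11 without each of the others (6 without PLX3397 M1). Their part in the 3 calls was not tested.

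Among known target genes of the pathways' transcription factors, 3 passed with edgeR: Fbxo32, Bcl2l11 and Serpina3n. Of 13 tested FOXO targets 2 fell and 0 rose, where 1.83% of all tested genes fell, with a median of −0.02 (−0.04 to 0.05 with a library left out, positive without vehicle F1, vehicle M2 or PLX3397 F2). At an unadjusted edgeR p under 0.05, 4 of the 13 were higher and 3 lower, where 7.24% of all tested genes were higher and 9% lower. The 4 became 1 without PLX3397 M1 or vehicle M1. Fbxo32, a ubiquitin ligase gene of muscle wasting, was at 12.3 to 15.2 CPM under vehicle and 5.73 to 6.61 CPM under PLX3397 (−1.14 ± 0.09, edgeR adjusted p = 0.00314; past the threshold in all 8 fits without a library). Bcl2l11, the cell death gene also called Bim, was at 7.82 to 9.59 and 5.18 to 6.13 CPM (−0.64 ± 0.11, edgeR adjusted p = 0.0315). It passed in 2 of 8 such fits, those without vehicle F1 or PLX3397 F1. The other 6 gave adjusted p of 0.109, 0.104 and 0.0764 (PLX3397 F2, M1 and M2 missing) and 0.0985, 0.104 and 0.108 (vehicle F2, M1 and M2 missing). Without vehicle F1 and PLX3397 M2 together Fbxo32 was the FOXO target past the threshold. The oligodendrocyte and microglial sums given above differ between the same groups, and their part here was not tested.

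Of 13 tested STAT3 targets 1 rose and 0 fell with edgeR, where 0.308% of all tested genes rose. With DESeq2 2 rose and 1 fell, where 2.02% of all tested genes rose and 4.47% fell. With limma-trend 1 rose and 1 fell. The median was 0.11, and it was 0.06, 0.07, 0.06 and 0.04 without PLX3397 F2, PLX3397 M2, vehicle F2 and vehicle M2, and 0.21 without vehicle M1. Pim3, a kinase gene named after its values were seen, was at 33.5, 34.9, 35.0 and 34.6 CPM under vehicle and at 23.9, 28.9, 27.2 and 28.3 CPM under PLX3397, with groups apart (−0.35, edgeR adjusted p = 0.0515). Serpina3n, a protease inhibitor of reactive astrocytes, was at 45.5 to 52.2 CPM under vehicle and 67.1 to 79.5 CPM under PLX3397 (0.57 ± 0.07, edgeR adjusted p = 0.0124; past the threshold in all 8 fits without a library, and not without vehicle F1 and PLX3397 M2 together, adjusted p = 0.105). Markers of astrocytes summed to 3163 to 3786 CPM under vehicle and 3374 to 3645 CPM under PLX3397, with 0 of 8 past the threshold with edgeR. With DESeq2 1 was lower, against 4.47% of all tested genes. At an unadjusted edgeR p under 0.05, 1 was higher and 1 lower, against 7.24% and 9%.

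The list chosen for arcuate neurons that respond to leptin held no call with edgeR, 0 of 15. Its genes include Trh, Mc4r and Nos1, and whole hypothalami were sequenced, so its counts are not confined to those neurons. The list shares Agrp and Ghrh with the hypothalamic markers given above. DESeq2 called 6, all higher, where 2.02% of all tested genes were higher, and limma-trend called 1. Of the 15, 11 had a positive sign, where 49.4% of all tested genes did, and 6 were higher and 0 lower at an unadjusted p under 0.05, where 7.24% of all tested genes were higher. The median was 0.17, and 0.30 without vehicle F1. Neuron markers, given above, also had 4 of 9 higher at that level, and their part here was not tested. Agrp, the appetite peptide whose neurons carry the leptin receptor, was at 10.01, 13.9, 12.5 and 10.9 CPM under vehicle and at 18.9, 17.7, 27.1 and 40.6 CPM under PLX3397 (edgeR adjusted p = 0.0699). Ghrh, the growth hormone releasing hormone gene, averaged 13.6 and 17.2 CPM (0.34, edgeR adjusted p = 0.0757). Both had groups that lay apart, as did 5 of the 15 in all, against 11.2% of tested genes. Pomc, which the pituitary also expresses, is named after its values were seen, for the lowest log2 fold change of the list, −2.28, with 966.7 CPM in vehicle F1 and 17.7 to 29.0 CPM in the other libraries. Of 12 glucocorticoid-responsive genes, which hormones of stress and fasting raise, 0 passed with edgeR, 5 were higher and 0 lower at an unadjusted p under 0.05 (against 7.24% of tested genes higher), and the median was 0.30. The 5 became 2 without PLX3397 F2, PLX3397 M2, vehicle F2 or vehicle M1, the median was 0.19 without PLX3397 M2, and 1 gene passed without vehicle M2. DESeq2 called 3, all higher, where 2.02% of all tested genes were higher. The smallest edgeR p of the list belonged to Mt1 (0.35, adjusted p = 0.104) and Plin4 (0.53, adjusted p = 0.121).

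**Figure D5:**
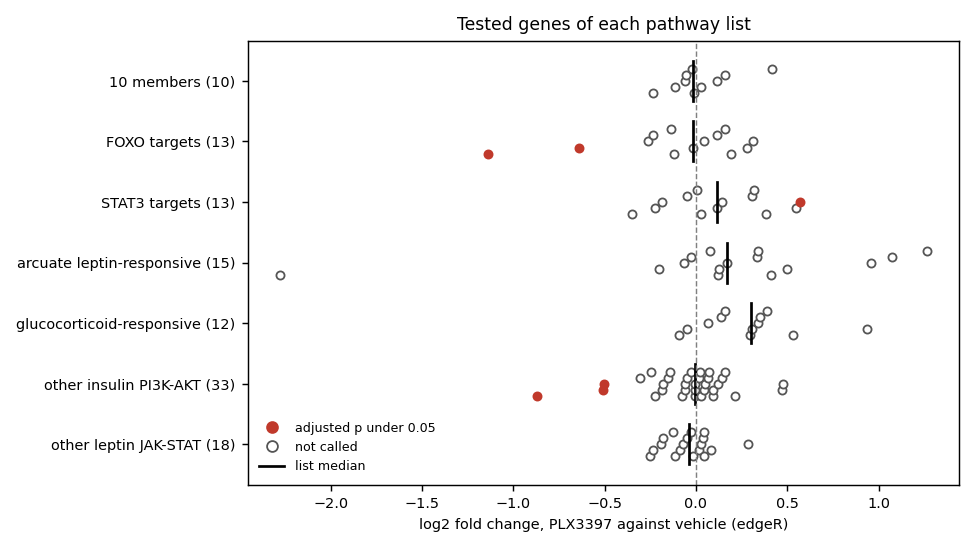
Log2 fold change of PLX3397 against vehicle for the tested genes of each list (number tested in brackets), with filled points for edgeR adjusted p under 0.05 and a bar at the list median; the vertical offset within a row only separates points. The 10 members lie between −0.23 and 0.42 with no filled point, and the insulin list holds 3 filled points, all lower.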

How the data were processed

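RNA from 8 hypothalami was depleted of ribosomal RNA and reverse transcribed from random primers, per the labels' protocols; the sources used here do not say whether strand was kept. The authors deposited whole-number counts per gene and FPKM values, per the file headers. Tools listed in the submitters' processing notes, without roles, are bcl2fastq 2.0, HISAT2, StringTie, DESeq2 and limma, with the build mm10. Counts were tested with edgeR 4.0.16 (quasi-likelihood F-test, two-sided, TMM scaling, sex as covariate, R 4.3.3) over the 16894 genes whose FPKM averaged 0.5 or more (38507 stayed untested), with Benjamini-Hochberg adjustment at 0.05. Models with 4 groups (treatment by sex) gave the effects within a sex. Standard errors are the absolute log2 fold change over the root of F, and 95% intervals use the fit's degrees of freedom. DESeq2 1.42.0 and limma 3.58.1 (log2 of FPKM plus 0.5, 0.1 or 1) were alternatives, as were other filters and scalings, a replicate block and leaving out libraries.

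The members and lists were chosen with earlier results of these data known. Named genes are the 10 members, Csf1r, up to 4 called genes per list (2 with the smallest p where none was called), the 5 closest to Lepr (log2 CPM plus 0.5) and genes that overlap a member; others are said to be so or describe markers. Whether the pups came from separate litters is not stated, so p-values measure the spread between these samples. Counts of overlapping genes cannot be separated without strand. Annotated spans of Insr, Irs1, Irs2, Stat3 and Foxo1 overlap other genes, of which Stat5a had the most counts, at most 438.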

Additional observations from a re-analysis of the deposited data

Results flagged for a closer look

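Foxo1 in PLX3397 M2, at 41.5 CPM, stood apart from the other 3 PLX3397 libraries, whose highest was 33.4 CPM, by a gap of 0.87 of the group's range, above Dixon's 95% critical value for 4 samples. This was 1 of 20 groups of 4 checked, and chance flags about 1 in 20.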

How the results depend on the processing

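The count of genes called for PLX3397 against vehicle, 362, was 1097 with DESeq2 (342 higher and 755 lower, against 52 and 310 with edgeR), 79 with the replicate block, 123 without vehicle F1 and PLX3397 M2 together, and 138 to 361 over the 8 fits that leave out a library (148, 146 and 224 with PLX3397 F2, M1 and M2 missing, and 157, 138 and 162 with vehicle F2, M1 and M2 missing); the cause was not tested. The other alternatives kept it within 1.5 times. DESeq2 called 143 genes for the difference between the sexes in place of 13, and 52 for males against females in place of 10. Same-labelled libraries of the groups deviated together only weakly (correlations of 0.0771, 0.101, 0.083 and 0.0296 for F1, F2, M1 and M2, the last below another pairing at 0.0885), so the labels were not taken to pair the pups. With the replicate block Lepr had 0.42 (adjusted p = 0.192), and Inppl1, Pik3r3, Grb14, Bcl2l11 and Serpina3n had adjusted p of 0.0714, 0.0688, 0.112, 0.131 and 0.0713, while Fbxo32 passed (0.033).

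Of the 10 members Lepr, Insr, Sh2b1, Irs1 and Irs2 kept their sign under all alternatives. The rest changed sign in some without a call. Leaving out a library in turn, the log2 fold change ran from −0.0741 to 0.0292 for Jak2, −0.0415 to 0.0482 for Stat3, −0.0802 to 0.101 for Foxo1, −0.31 to 0.14 for Socs3 and −0.31 to 0.16 for Ptpn1. Without vehicle F1 and PLX3397 M2 it was 0.0422 for Stat3, −0.0181 for Foxo1, 0.11 for Socs3 and 0.44 for Ptpn1, and with no expression filter 0.00122 for Stat3. Bcl2l11 missed the threshold with limma-trend at each pseudocount (adjusted p = 0.0824 to 0.0916). Socs3 and Bcl2l11 were not tested at a mean FPKM of at least 1. No scaling moved the median of all genes by over 0.1. Socs3, at 108 to 255 counts, and Ptpn1, with its 2 low libraries, had the widest intervals of the members.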
